A study of Rattus norvegicus with 6 samples.

Results

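The oxygen-sensing transcription factor subunit Hif1a and 8 of its textbook target genes were followed in nuclei of the rat ileum, with and without severe acute pancreatitis (SAP). The members were taken by gene symbol (Hif1a, Vegfa, Slc2a1, Ldha, Pdk1, Pfkfb3, Egln3, Bnip3 and Ndrg1), and all 9 were found among the 28282 symbols of the count tables. They were summed per library over the nuclei that pass the quality limits of the study, 40970 of 90461 barcodes. The paper reports somewhat fewer nuclei after its own quality control, and the reason for the difference was not tested.

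The rats were 6-week-old wild-type male Sprague-Dawley animals that had acclimatized for 7 days, and all of them fasted with free access to water after surgery. In the SAP group (n = 3), 3% sodium taurocholate, a bile salt, was infused against the flow into the pancreatic duct at 0.1 mL per 100 g body weight and 0.1 mL/min, and the duct was then clamped for 5 min. The control group (CON, n = 3) had the abdomen opened without the infusion. The ileum was taken after 24 h, and each library came from 1 rat. The passing nuclei numbered 3189 to 9246 per library, with 5549260 to 28771508 UMIs (unique molecular identifiers, 1 per captured RNA molecule).

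In cells with enough oxygen, prolyl hydroxylases mark the HIF alpha subunit and the VHL protein sends it to be degraded. When oxygen falls, the alpha subunit persists, pairs with ARNT and binds short DNA elements near genes of glucose uptake, glycolysis, vessel growth and mitochondrial turnover. The villus of the gut is known for a steep oxygen gradient towards its tip. The HIF alpha protein is controlled mainly after translation, so its RNA level is not a readout of its activity.

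The core of the HIF-binding element was searched in promoter windows to show what surrounds the start sites of the members. The windows are those of RefSeq on the rat build GRCr8, 250 bases before to 50 bases after the gene start, while the counts were made on mRatBN7.2, so no coordinate was carried between the builds. Windows were matched by symbol for 8 of the 9 members, all but Ndrg1. The letters searched were ACGTG and GCGTG on both strands, and the palindrome CACGTG counts as 2 overlapping matches of ACGTG. Of 33469 windows of this length, 41.6% held at least 1 of these letters, 19.2% at least 2 and 1.52% at least 5. Ldha had 6 matches, Slc2a1, Pdk1 and Bnip3 had 4 each, Hif1a had 3, Pfkfb3 had 2, and Egln3 and both windows of Vegfa had 0. The 4 windows below are shown because Ldha, Pfkfb3 and Egln3 were higher in every SAP library of the epithelium while Pdk1 was not. Capitals mark the matches, and each sequence runs 5′ to 3′ on the strand of the gene. The windows lie at chr1:106507842-106508141 on the plus strand for Ldha, chr17:71944683-71944982 on the plus strand for Pfkfb3, chr6:77410966-77411265 on the minus strand for Egln3 and chr3:77113264-77113563 on the plus strand for Pdk1.
Ldha: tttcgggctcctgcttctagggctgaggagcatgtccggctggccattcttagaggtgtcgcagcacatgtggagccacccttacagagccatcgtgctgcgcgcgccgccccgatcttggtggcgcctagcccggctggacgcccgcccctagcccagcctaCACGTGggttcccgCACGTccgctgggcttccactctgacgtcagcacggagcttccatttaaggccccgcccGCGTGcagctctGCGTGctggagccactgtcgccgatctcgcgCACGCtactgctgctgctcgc
Pfkfb3: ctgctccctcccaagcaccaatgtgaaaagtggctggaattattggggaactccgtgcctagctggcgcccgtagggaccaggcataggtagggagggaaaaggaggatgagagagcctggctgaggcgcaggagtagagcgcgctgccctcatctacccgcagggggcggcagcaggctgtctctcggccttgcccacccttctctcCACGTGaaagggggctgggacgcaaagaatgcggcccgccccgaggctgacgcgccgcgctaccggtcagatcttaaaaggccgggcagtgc
Egln3: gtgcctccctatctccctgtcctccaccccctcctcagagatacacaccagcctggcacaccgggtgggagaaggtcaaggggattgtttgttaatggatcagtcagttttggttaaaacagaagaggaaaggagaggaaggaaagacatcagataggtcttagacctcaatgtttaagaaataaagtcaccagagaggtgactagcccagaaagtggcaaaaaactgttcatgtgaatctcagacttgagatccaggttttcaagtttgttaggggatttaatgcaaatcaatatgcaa
Pdk1: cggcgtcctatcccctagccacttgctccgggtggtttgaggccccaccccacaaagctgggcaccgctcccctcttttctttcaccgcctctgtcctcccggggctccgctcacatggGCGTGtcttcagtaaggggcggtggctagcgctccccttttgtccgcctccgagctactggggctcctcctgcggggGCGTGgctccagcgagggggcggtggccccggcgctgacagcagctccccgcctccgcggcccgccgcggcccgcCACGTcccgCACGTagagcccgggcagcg
A match is a run of letters and not a measured binding site, and a window without one says nothing about the factor elsewhere.

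Across all nuclei, epithelial nuclei (30796) and non-epithelial nuclei (10170), 0 of the 9 members were called between SAP and CON by edgeR's quasi-likelihood test. A gene counted as called when its Benjamini-Hochberg adjusted p over all genes tested was under 0.05 and its log2 fold change was 0.5 or more in either direction. The share of all genes called was 0% in each of the 3 comparisons, over 19187, 16869 and 17031 genes tested. At an unadjusted p under 0.05 stood 4, 5 and 2 of the 9 members, beside 8.43%, 11.5% and 6.97% of all genes. In the epithelium, 5 of the 9 members (Hif1a, Ldha, Pfkfb3, Egln3 and Ndrg1) were higher in every SAP library than in every CON library once the libraries were scaled by TMM, the trimmed mean of M-values, beside 6.97% of all genes tested. Over all nuclei this held for 4 members beside 4.9% of all genes, and in non-epithelial nuclei for 4 members beside 4.85%. In CPM without TMM scaling, an alternative chosen after seeing the data, it held for 3 members in the epithelium (Ldha, Pfkfb3 and Egln3) beside 5.45% of all genes, for 3 over all nuclei (Hif1a, Ldha and Egln3) beside 4.53% and for 4 in non-epithelial nuclei beside 4.13%. The median log2 fold change of the 9 members in the epithelium was 0.58, and that of all genes tested was 0.00. The members were chosen with earlier results of these data known, so these values are a description and not a test of the set. DESeq2 called 278 genes in the epithelium (1.92% of those tested) and 95 in non-epithelial nuclei (0.562%), with Ldha as the single member in both.

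**Figure D1:**
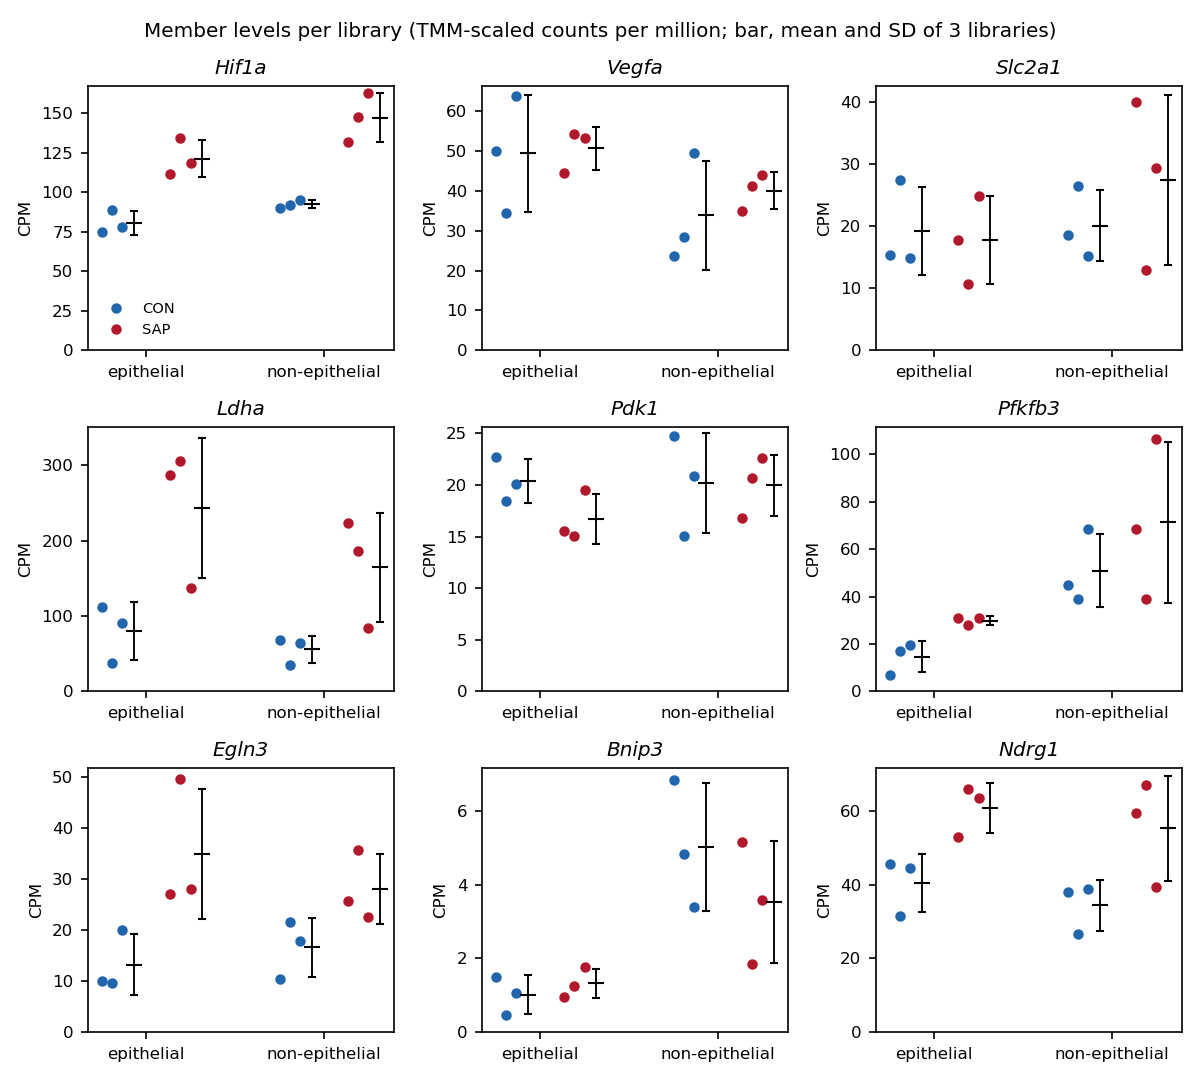
Levels of the 9 members in CPM (scaled by TMM) for each of the 3 CON and 3 SAP libraries, in epithelial and non-epithelial nuclei, with the mean and SD of each group as a bar. For Hif1a, Ldha, Pfkfb3, Egln3 and Ndrg1 the epithelial points of SAP lie above all those of CON, while the points of Vegfa, Slc2a1, Pdk1 and Bnip3 overlap.

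Hif1a encodes the oxygen-regulated alpha subunit itself. Epithelial nuclei of CON held 74.6, 88.7 and 77.8 CPM of Hif1a, and those of SAP held 111, 134 and 118 CPM. CPM are UMIs of the gene per 1000000 UMIs of the library in the set of nuclei given. Ranges of mitochondrial share, class-fixed mixtures and enterocyte marker sums used unscaled CPM. Elsewhere, unless stated, comparisons of SAP and CON used CPM scaled by TMM. On this scale all SAP libraries lay above all CON libraries, at 121 ± 11.5 against 80.4 ± 7.4 CPM (SD, n = 3). Without TMM scaling the levels were 81.9 ± 23.1 CPM in CON and 123 ± 24.1 CPM in SAP, and CON replicate 2 and SAP replicate 1 both stood at 97.9 CPM, so that the groups met. The log2 fold change was 0.59 (SE 0.18, edgeR adjusted p = 0.393). In non-epithelial nuclei Hif1a stood at 90.3, 92.2 and 94.96 CPM in CON and 132, 147 and 163 CPM in SAP, with a log2 fold change of 0.67 (SE 0.20, edgeR adjusted p = 0.624). The difference between these log2 fold changes was 0.06 (SE 0.17, edgeR adjusted p = 0.984).

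Egln3 encodes a prolyl hydroxylase that marks HIF alpha for decay and is itself a HIF target. Its epithelial level was 10.1, 9.70 and 20.1 CPM in CON and 27.2, 49.7 and 28.1 CPM in SAP. The SAP libraries were all higher, and SAP replicate 2 stood well above the other SAP libraries. Without TMM scaling the groups stayed apart by a small margin, with CON replicate 3 at 23.8 CPM and SAP replicate 1 at 23.9 CPM. The log2 fold change was 1.397 (SE 0.40, edgeR adjusted p = 0.391). In non-epithelial nuclei the CON libraries held 10.4, 21.7 and 17.9 CPM and the SAP libraries 25.8, 35.7 and 22.7 CPM, again without overlap but with SAP replicate 3 only slightly above CON replicate 2.

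Ldha encodes the A subunit of lactate dehydrogenase, which turns pyruvate into lactate. Its epithelial level was 112, 37.9 and 90.1 CPM in CON and 287, 306 and 137 CPM in SAP. The groups did not overlap, but SAP replicate 3 lay far closer to the CON libraries than to the other SAP libraries. The log2 fold change was 1.60 (SE 0.45, edgeR adjusted p = 0.391, DESeq2 adjusted p = 0.0414). Non-epithelial nuclei held 67.7, 34.9 and 64.2 CPM in CON and 223, 187 and 84.2 CPM in SAP, with a log2 fold change of 1.54 (SE 0.40, edgeR adjusted p = 0.613, DESeq2 adjusted p = 0.0449).

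The libraries with the most Ldha were also those with the most mitochondrial RNA. The median mitochondrial share of a nucleus was 0.700, 0.125 and 0.218% for CON replicates 1 to 3 and 1.84, 1.29 and 0.387% for SAP replicates 1 to 3, so the groups overlapped in this share. Epithelial nuclei were therefore also compared within 5 ranges of this share, chosen after the data were seen. The log2 ratio of the group means of Ldha was 1.61 over all epithelial nuclei. Within the ranges it was 1.34 under 0.25%, 0.96 from 0.25 to 0.5%, 0.80 from 0.5 to 1%, 0.47 from 1 to 2% and 0.38 from 2 to 5%. Some of these values rest on few nuclei, since SAP replicate 1 had 0 nuclei under 0.25% and 23 from 0.25 to 0.5%, SAP replicate 2 had 18 under 0.25%, and CON replicate 2 had 44 and 6 in the highest ranges.

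Without TMM scaling, as used within the ranges, 3 members were higher in every SAP library over all epithelial nuclei, beside 5.45% of all genes. From 0.5 to 1%, a range with at least 176 nuclei in every library, none of the 9 members was higher in every SAP library than in every CON library. The share of all genes apart in this range was not computed, so this count has no background to be read against. Ldha stood there at 82.4, 84.7 and 186 CPM in CON and 183, 281 and 153 CPM in SAP, and CON replicate 3 lay above SAP replicates 1 and 3. The CON replicate 2 value rests on 23 UMIs. Hif1a was at 61.4, 69.9 and 113 CPM in CON and 75.5, 128 and 164 CPM in SAP, with a log2 ratio of means of 0.59, the same as over all epithelial nuclei. Egln3 was at 7.38, 14.7 and 34.7 CPM in CON and 19.3, 50.8 and 37.2 CPM in SAP, with a ratio of 0.92 against 1.32 over all epithelial nuclei. Ndrg1 was at 33.4, 58.9 and 42.2 CPM in CON and 45.7, 60.03 and 83.1 CPM in SAP, with a ratio of 0.49 against 0.62. From 0.5 to 1%, CON replicate 2 held only 19 UMIs of Hif1a, 4 of Egln3 and 16 of Ndrg1. SAP replicate 1 held 43, 11 and 26. In the range from 1 to 2%, Hif1a was apart, at 70.3, 69.9 and 83.7 CPM in CON and 110, 126 and 115 CPM in SAP. The other members overlapped in that range, and the Hif1a value of CON replicate 2 rests on 6 UMIs. For this range too the share of all genes apart was not computed, so the 1 member apart has no background. In nuclei with at most 1% mitochondrial UMIs, which keeps 314 epithelial nuclei of SAP replicate 1, the epithelial log2 fold change of Ldha was 1.44 (edgeR adjusted p = 0.564). The part of mitochondrial or cytoplasmic carry-over in these differences was not tested.

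**Figure D2:**
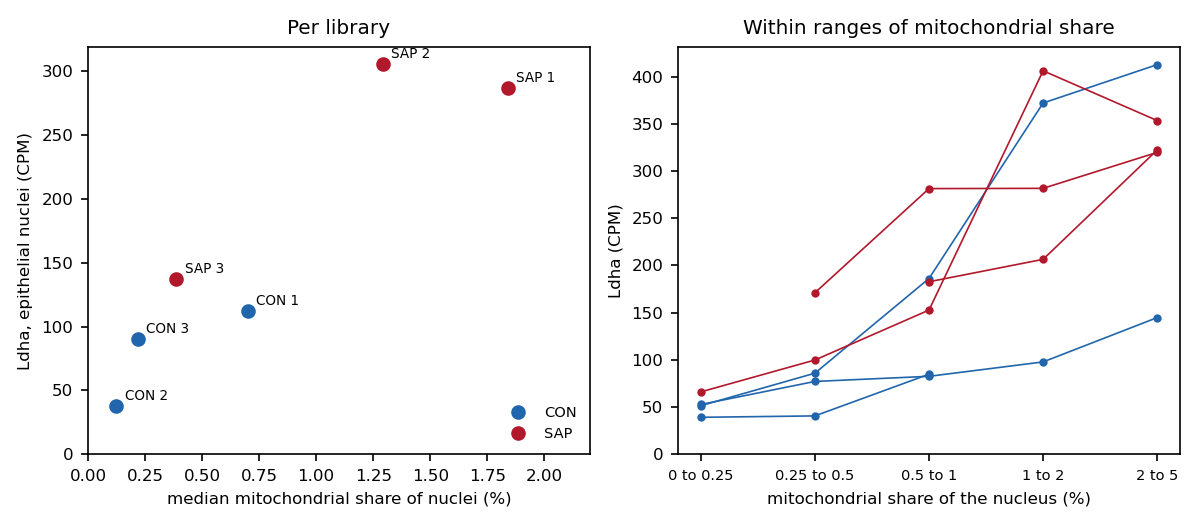
Left, Ldha in epithelial nuclei (CPM, TMM-scaled) against the median mitochondrial share of the nuclei (%) for each library. Right, Ldha (CPM without TMM scaling) in epithelial nuclei of each library within 5 ranges of mitochondrial share. Points of fewer than 50 nuclei are left out, with CON in blue and SAP in red. Ldha was 39.0 to 52.5 CPM in the CON libraries at shares under 0.25% and 145 and 413 CPM in CON replicates 1 and 3 at shares of 2 to 5%.

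Pfkfb3 encodes an enzyme that makes fructose 2,6-bisphosphate, an activator of glycolysis. Its epithelial level was 7.13, 17.1 and 19.7 CPM in CON and 30.8, 27.8 and 30.9 CPM in SAP, with a log2 fold change of 1.03 (SE 0.38, edgeR adjusted p = 0.406). All SAP libraries were higher. In epithelial nuclei with 0.5 to 1% mitochondrial UMIs the groups overlapped. CON held 6.63, 33.1 and 44.7 CPM there and SAP 33.4, 34.2 and 43.0 CPM. The log2 ratio of means was 0.39 against 0.94 over all epithelial nuclei. In this range the CON replicate 2 value rests on 9 UMIs and that of SAP replicate 1 on 19. In non-epithelial nuclei the groups overlapped, at 45.1, 39.2 and 68.4 CPM in CON and 68.4, 38.8 and 107 CPM in SAP.

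Ndrg1, a stress-responsive gene of the NDRG family, stood at 45.6, 31.4 and 44.4 CPM in the CON epithelium and 52.9, 65.7 and 63.3 CPM in the SAP epithelium. All SAP libraries were higher on this scale, while without TMM scaling CON replicate 3, at 52.7 CPM, lay above SAP replicate 1, at 46.5 CPM. The log2 fold change was 0.58 (SE 0.23, edgeR adjusted p = 0.420). In non-epithelial nuclei SAP replicate 3, at 39.5 CPM, lay just above CON replicate 3, at 38.8 CPM.

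The other 4 members showed no such separation in the epithelium. Vegfa, the main growth factor of blood vessels, was at 50.0, 34.5 and 63.8 CPM in CON and 44.4, 54.3 and 53.2 CPM in SAP (log2 fold change 0.04, SE 0.27). Slc2a1, the glucose transporter GLUT1, was at 15.4, 27.4 and 14.8 CPM in CON and 17.7, 10.7 and 24.9 CPM in SAP (log2 fold change -0.11, SE 0.40). Pdk1, a kinase that inhibits pyruvate dehydrogenase, was at 22.7, 18.5 and 20.1 CPM in CON and 15.5, 15.1 and 19.5 CPM in SAP (log2 fold change -0.29, SE 0.25). Over all nuclei, scaled by TMM, Pdk1 was lower in every SAP library than in every CON library, as were 9.06% of all genes tested. Its log2 fold change there was -0.25 (SE 0.27, edgeR adjusted p = 0.859). Without TMM scaling 0 members were lower in every SAP library over all nuclei, beside 928 of the 19187 genes tested. Bnip3, a mitophagy receptor, was barely detected, with 206 UMIs over the 6 libraries and 0.462 to 1.76 CPM in the epithelium.

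Enterocyte-like nuclei were a larger share of the epithelium in every SAP library, a description without a test. They were 9.64, 11.3 and 14.8% of the epithelial nuclei in CON and 22.0, 32.6 and 18.7% in SAP. Cluster 1, an unnamed cluster of 4296 nuclei closest to enterocytes, was not counted among them. The paper found no significant rise of enterocytes between the animals. Egln3 and Ldha were highest in enterocyte-like nuclei. The part of the enterocyte-like share in their epithelial levels was not tested. To hold the mixture of classes fixed, each library's level was recomputed over all nuclei from the unscaled CPM of its 15 classes, weighted by the shares pooled over all libraries. The groups were then apart with SAP higher for 2 of the 9 members, Hif1a and Ldha, beside 4.83% of all genes. Before the mixture was fixed these were 3 members in unscaled CPM over all nuclei, the third being Egln3. The mixture within a class was not fixed by this. Cluster 7, 1 of 2 clusters of the enterocyte-like class, made up 26.2, 29.8 and 39.8% of that class in CON and 40.3, 44.96 and 45.9% in SAP. With the enterocyte-like and stem/TA-like classes split into their clusters, chosen after seeing the data, Hif1a and Ldha were again the 2 members apart. Their mean differences with the split were 0.54 and 1.38 on the log2(CPM + 1) scale. The share of all genes apart was not computed for the split. The values that follow are for the 15 classes without the split. Hif1a was 68.8, 97.2 and 94.5 CPM in CON and 104, 122 and 153 CPM in SAP, a mean difference of 0.53 on the log2(CPM + 1) scale. Ldha was 76.5, 43.9 and 101 CPM in CON and 207, 224 and 140 CPM in SAP, a mean difference of 1.41. Both had an exact two-sided permutation p of 0.1, the smallest that 3 against 3 libraries can give, and an adjusted p of 0.45 over the 9 members in that permutation test. Egln3 overlapped once the mixture was fixed, at 9.65, 13.4 and 23.0 CPM in CON and 20.02, 34.5 and 29.99 CPM in SAP, and its mean difference was 0.88 (exact permutation p = 0.2).

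The members differed in where they were expressed. The classes were named from marker genes, and levels are given as CPM within a class, mean ± SD over the 6 libraries, as a description without a test. Vegfa stood out most clearly. It was at 234 ± 99.5 CPM in cluster 9, an unnamed epithelial cluster whose marker scores were highest for Paneth and then stem cells, against 81.2 ± 37.6 CPM in enterocyte-like nuclei, the next class, and it was higher in cluster 9 in 6 of 6 libraries. Cluster 9 held 16.6% of all Vegfa UMIs with 3.25% of all UMIs. Between enterocyte-like nuclei and the third class, tuft-like nuclei (70.7 ± 22.4 CPM), the means differed by less than the SD.

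Ldha was highest in enterocyte-like nuclei, at 309 ± 189 CPM, followed by Paneth-like nuclei (193 ± 92.3 CPM) and smooth muscle (SMC-like) nuclei (150 ± 72.9 CPM). Neither step exceeded the SD, and the 6 libraries mix both groups. Enterocyte-like nuclei held 34.3% of all Ldha UMIs with 13.3% of all UMIs. Egln3 was also highest in enterocyte-like nuclei, at 65.6 ± 33.6 CPM, and these held 42.4% of its UMIs. SMC-like nuclei came next, at 40.8 ± 9.41 CPM, and the step to them did not exceed the larger SD. SMC-like nuclei lay above the class after them, cluster 17 at 24.0 ± 15.4 CPM, in 6 of 6 libraries. Within the enterocyte-like class, cluster 7 had 106 ± 48.8 CPM of Egln3 and cluster 3 had 37.2 ± 16.2 CPM. Ldha was 444 ± 289 CPM in cluster 7 and 203 ± 120 CPM in cluster 3, and Vegfa was 124 ± 49.6 and 53.1 ± 25.9 CPM.

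Hif1a varied least among classes, from 74.2 ± 24.4 CPM in Paneth-like nuclei to 170 ± 79.5 CPM in macrophage/neutrophil-like nuclei, and the first 2 classes, these and endothelial-like nuclei (169 ± 110 CPM), did not differ beyond their spread. Slc2a1 was at 55.5 ± 54.4 CPM in macrophage/neutrophil-like nuclei and 41.0 ± 17.8 CPM in goblet-like nuclei, which did not differ beyond their spread. Without SAP replicate 1, which held 50 macrophage/neutrophil-like nuclei, goblet-like nuclei led with 42.8 against 34.2 CPM, and in CON alone with 42.9 against 31.9 CPM. Slc2a1 was lowest in enterocyte-like nuclei (9.86 ± 6.49 CPM). Pdk1 was likewise lowest in enterocyte-like nuclei, at 10.9 ± 2.25 CPM. It was highest in cluster 17, an unnamed non-epithelial cluster, at 30.6 ± 14.2 CPM. Stem/TA-like nuclei, the stem and transit-amplifying cells of the crypt, came next at 26.8 ± 6.49 CPM, and these 2 did not differ beyond their spread. Ndrg1 led in enteroendocrine-like nuclei (98.6 ± 30.7 CPM) and tuft-like nuclei (73.5 ± 8.55 CPM), but neither differed from the next class beyond the spread. Pfkfb3 led in B-like nuclei (88.3 ± 57.6 CPM). Macrophage/neutrophil-like nuclei came next (70.8 ± 55.6 CPM) and did not differ from them beyond the spread. B-like nuclei numbered 29 and 27 in SAP replicates 1 and 2 and 812 in SAP replicate 3. In fat-like nuclei, too few for a test, 170 Pfkfb3 UMIs gave a pooled level of 343 CPM (95% Poisson interval 293 to 399, counting error only), and Bnip3 reached 44.4 CPM (27.8 to 67.2) from 22 UMIs.

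**Figure D3:**
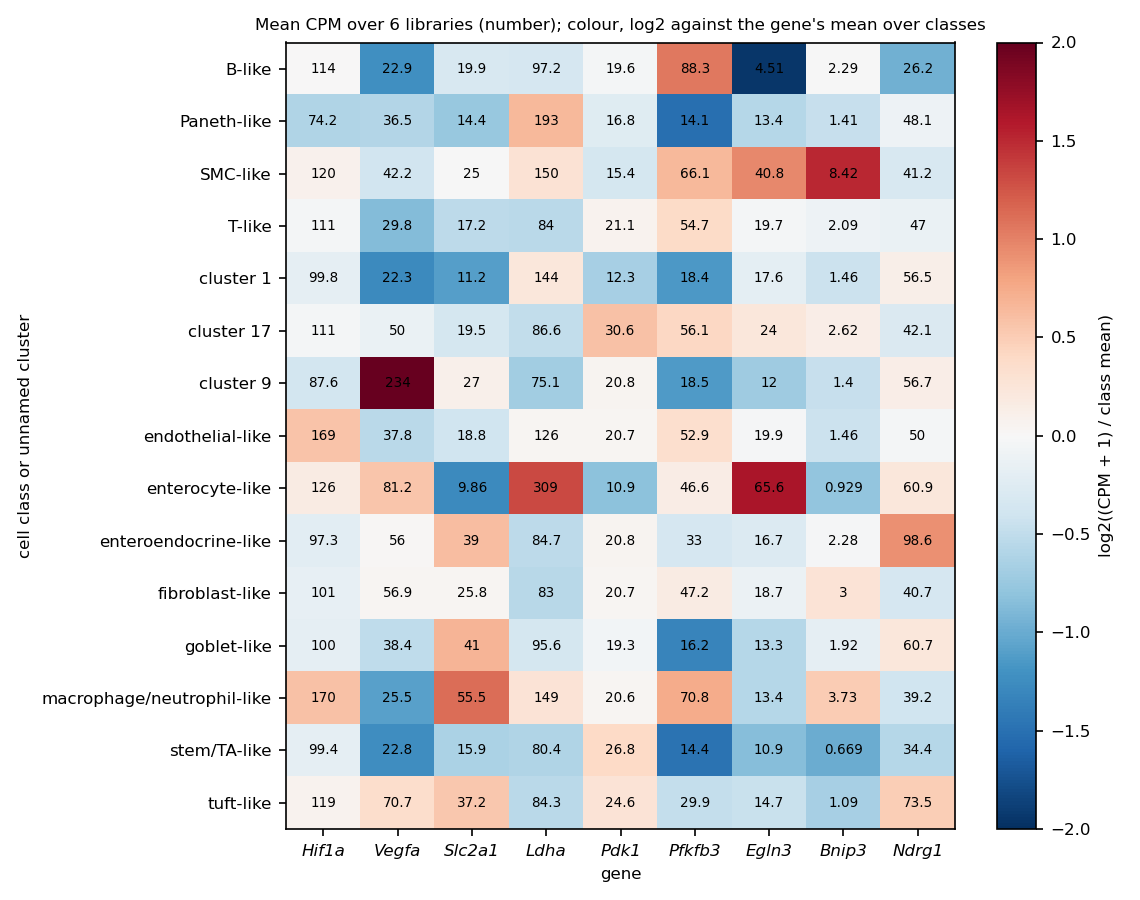
Mean CPM of each member over the 6 libraries (number in each cell) in each of the 15 classes or clusters for which no library held fewer than 10 nuclei. Colour gives log2 of the level plus 1 against the mean of that gene over the classes, so that colours compare classes within a gene. Vegfa in cluster 9 (234 CPM) stands out. Egln3 and Ldha were highest in enterocyte-like nuclei (65.6 and 309 CPM), but the step to the next class did not exceed the SD.

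Genes whose class profile was most like that of each member were ranked by Spearman correlation of the mean log2(CPM + 1) over the 15 classes, among genes of at least 20 CPM in some class. These are descriptions over 15 points that share libraries. Closest to Ldha were COX2 and Vamp8 (0.89 each) and Crip1 (0.88), and COX2 is a gene of the mitochondrial genome. Closest to Egln3 were Cubn (0.89), Plat (0.88) and Ralyl (0.85). Closest to Vegfa were Etl4 (0.86), Gnai1 (0.80) and Slc41a2 (0.75), and closest to Hif1a were Slc22a5 (0.86), Ncoa7 (0.86) and Tiparp (0.81). Closest to Pdk1 were Chd1l (0.93), Cstf2 (0.90) and Efcab12 (0.88), and closest to Slc2a1 were B4galnt2 (0.89), Mtss1 (0.86) and LOC120095627 (0.85). For Pfkfb3 they were Cd38 and Mras (0.89 each) and Septin6 (0.85), for Ndrg1 Pbld1 (0.86), Eps8l3 (0.85) and Dyrk2 (0.85), and for Bnip3, with its few UMIs, they included Speg (0.83) and Gsn (0.82).

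In the 15 classes taken one by one, 96 tests of members passed the filter on low counts and 0 were called, beside 0.0203% of all tests of a gene in a class. SAP was higher without overlap in 32 of the 96 and lower in 1, beside 6.25% and 7.97% of all such tests. Without TMM scaling these were 24 and 1, and SAP was higher without overlap in 5.01% of all such tests. Without the filter 7 tests were called (0.696% of all), and without SAP replicate 3 there were 2 (0.248% of all), each of them Ldha. The classes come from the same 6 libraries, so counts over classes are not independent. Among all genes tested in a class, 45.8 to 53.6% had a positive log2 fold change. Hif1a had a positive log2 fold change in 15 of 15 classes, from 0.41 to 1.27, and was higher in every SAP library in 10 of them. The largest value of Hif1a was in macrophage/neutrophil-like nuclei (116 ± 5.16 CPM in CON, 294 ± 151 CPM in SAP, log2 fold change 1.27, SE 0.38, edgeR adjusted p = 0.607), and it was 0.86 without SAP replicate 1. Ldha was positive in 14 of 15 classes, with B-like nuclei as the exception (-0.19, SE 0.44), and apart in 10. In macrophage/neutrophil-like nuclei Ldha was at 55.2, 21.4 and 67.8 CPM in CON and 712, 177 and 145 CPM in SAP, with a log2 fold change of 2.62 (SE 0.66, edgeR adjusted p = 0.607). SAP replicate 1 stood far above the rest and held 50 such nuclei, and without it the value was 1.64 (SE 0.43). Without TMM scaling the highest library of this class was at 464 CPM for Ldha and at 302 CPM for Hif1a. With all 6 libraries DESeq2 called Ldha there (log2 fold change 2.61, adjusted p = 0.0202), beside 0.432% of the genes tested. In tuft-like nuclei Ldha stood at 44.0 ± 1.24 CPM in CON and 143 ± 37.8 CPM in SAP (log2 fold change 1.72, SE 0.33, edgeR adjusted p = 0.198). Egln3 was positive in 7 of 7 classes and apart in 3, Ndrg1 in 12 of 13 and apart in 7, and Pfkfb3 in 12 of 13 and apart in 2. Pfkfb3 in endothelial-like nuclei was lower in every SAP library (log2 fold change -0.38, SE 0.46). Vegfa was apart in 0 of 13 classes and Slc2a1 in 0 of 10. Bnip3 passed the filter in no class.

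**Figure D4:**
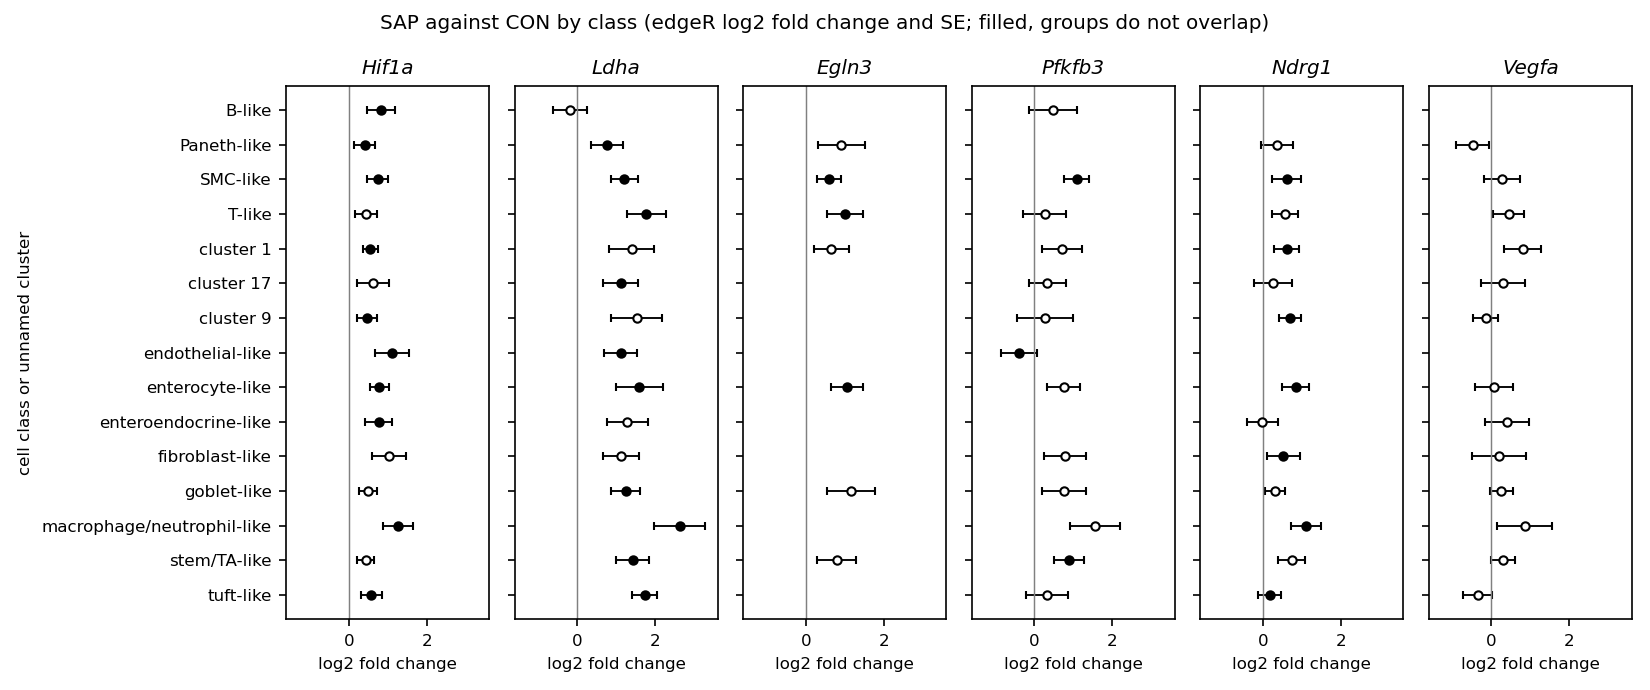
Log2 fold change of SAP against CON with its SE (edgeR) for 6 members in each class where the gene passed the filter on low counts. Filled points mark classes whose SAP and CON libraries do not overlap. Hif1a lies right of 0 in 15 of 15 classes and Ldha in 14 of 15, and no point was called. The classes share the same 6 libraries.

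UMIs of enterocyte markers were also found in nuclei of other classes. In non-epithelial nuclei the summed level of the enterocyte markers, 13 of 14 of which were found, was 1126 to 2652 CPM in CON and 1994 to 4000 CPM in SAP, and 13 of the 13 had a higher mean in SAP. In T-like nuclei the sum was 1392 to 3172 CPM in CON and 2121 to 4349 CPM in SAP. Of these markers, 12 had UMIs in non-epithelial nuclei of every library. The source of these UMIs, and their part in the Ldha and Egln3 values of non-epithelial nuclei, was not tested. The effect in enterocyte-like nuclei minus that in stem/TA-like nuclei was 0.56 for Ldha (SE 0.62, edgeR adjusted p = 0.973), 0.44 for Egln3 (SE 0.58, edgeR adjusted p = 0.981) and 0.32 for Hif1a (SE 0.26, edgeR adjusted p = 0.937). For 0 of the 9 members did the SAP effect differ between epithelial and non-epithelial nuclei, beside 0.00533% of all genes, and for 0 of the 8 tested did it differ between enterocyte-like and stem/TA-like nuclei, beside 0%.

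Genes around the members were counted over lists of the oxygen-sensing and sugar pathways. These lists too were chosen with earlier results of these data known. No gene of these lists was called in the epithelium by edgeR. Among all 16869 genes tested there, 49.9% had a positive log2 fold change, 6.97% were apart with SAP higher and 12.6% apart with SAP lower. Of 17 glycolytic enzymes tested, 12 had a positive and 5 a negative log2 fold change, with a median of 0.31, and 5 were higher and 0 lower in every SAP library. Pfkp, a phosphofructokinase, was at 80.7 ± 16.9 and 181 ± 63.6 CPM (log2 fold change 1.17, SE 0.29, edgeR adjusted p = 0.391).

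Of 25 other HIF targets tested, 18 were positive and 7 negative, with a median of 0.34, and 4 were apart upwards and 2 downwards. Car12, a carbonic anhydrase, was at 174 ± 15.9 CPM in CON and 226 ± 86.5 CPM in SAP, and Fam162a, a mitochondrial protein, was at 116 ± 25.7 and 111 ± 16.4 CPM. In both the groups overlapped. Of the 9 genes of the HIF system, 7 were positive, with a median of 0.29, and 3 were apart upwards. Egln2, another prolyl hydroxylase, was at 268 ± 82.4 CPM in CON and 211 ± 36.5 CPM in SAP, and Arnt, the partner subunit, at 85.6 ± 13.5 and 96.3 ± 15.9 CPM. Epas1, which encodes HIF2 alpha and was picked after its values were seen, was at 17.5 ± 8.10 and 37.2 ± 11.6 CPM, without overlap (log2 fold change 1.09, SE 0.39, edgeR adjusted p = 0.401).

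Of 17 genes of lactate and pyruvate handling, 9 were positive and 8 negative, with a median of 0.05, and 2 were apart in each direction. Bsg, a chaperone of lactate transporters, was at 225 ± 197 CPM in CON and 225 ± 105 CPM in SAP. Dlat, a subunit of pyruvate dehydrogenase, was lower in every SAP library, at 74.4 ± 15.1 and 46.0 ± 12.6 CPM (log2 fold change -0.69, SE 0.27, edgeR adjusted p = 0.411). Of 14 genes of gluconeogenesis and fructose use, 10 were positive, with a median of 0.25, and 4 were apart upwards. Khk, which phosphorylates fructose, was at 102 ± 12.3 CPM in CON and 287 ± 205 CPM in SAP, where SAP replicate 3 (96.9 CPM) fell within the CON range. Pfkfb4, a relative of Pfkfb3, was at 111 ± 5.90 and 118 ± 29.7 CPM. Of 9 genes of the VEGF family and its receptors, 4 were positive and 5 negative, with a median of -0.01, and 2 were apart downwards. Vegfc, a growth factor of lymph vessels, was at 39.7 ± 7.73 CPM in CON and 31.1 ± 2.12 CPM in SAP, and the neuropilin Nrp2 at 15.7 ± 6.53 and 13.3 ± 6.48 CPM. Of the 7 relatives of Ndrg1 and Bnip3, 1 was positive and 6 negative, with a median of -0.42, and the positive one was Bnip5, at 76.6 ± 32.1 and 162 ± 37.7 CPM. In this list 1 gene was apart upwards and 2 downwards. Bnip2 was at 122 ± 14.7 CPM in CON and 110 ± 8.06 CPM in SAP.

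**Figure D5:**
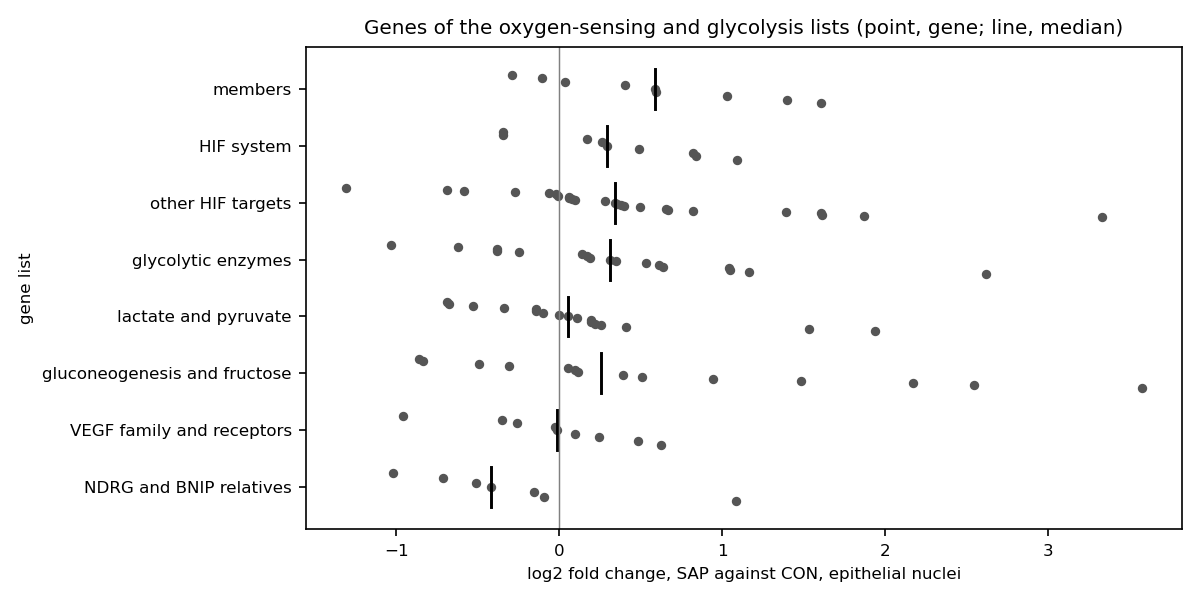
Log2 fold change of SAP against CON in epithelial nuclei for each tested gene of the members and of 7 lists (points), with the median of each list as a line. The medians run from -0.42 for the relatives of Ndrg1 and Bnip3 to 0.58 for the 9 members, and single genes of most lists lie on both sides of 0.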

How the data were processed

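The authors made gene-by-barcode UMI tables with dnbc4tools, and the deposited values are raw counts, 1 table per library. The submitters' processing notes name the build mRatBN7.2 and Seurat 4.3.0. Barcodes below 1200 UMIs or 500 genes, or above 5% mitochondrial UMIs, were dropped, after the study's methods. Counts were normalized and clustered with scanpy 1.11.5 (30 principal components, libraries integrated with a numpy re-implementation of Harmony, Leiden resolution 0.8), and a cluster was named when its marker score was at least 0.5 (log2) and led the next by at least 0.8 with 3 or more markers detected, or by at least 1 where the next class also scored 0.5 or more. Both limits were chosen with the clusters in view. Stem and transit-amplifying, endothelial and lymphatic, and macrophage and neutrophil markers each counted as 1 class. Members and pathway genes among the variable genes (26 with mitochondrial genes) were kept out of the clustering. Of 22 clusters, 5 stayed unnamed (17.0% of nuclei). Doublets were kept, since Scrublet marked 0 to 0.188% per library by its own threshold. Leaving out the 5% with the highest scores (2048 nuclei) was an alternative. CON replicate 2 and SAP replicate 1 also list barcodes under 1000 UMIs. Barcode names are running numbers, so shared names between libraries do not mark shared cells.

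Counts were summed per library and class and tested with edgeR 4.0.16 (filterByExpr, TMM, quasi-likelihood, R 4.3.3), and with DESeq2 1.42.0 as an alternative. P-values were adjusted over all genes tested. Simulated counts had the real means and library sizes, with changes placed only in genes above a set level. In them edgeR recovered 4% of changes of 1 and 96% of changes of 3 on the log2 scale in the epithelium, among 16324 genes. Each rat gave 1 library, and intervals cover counting error only. Same-numbered libraries deviated together over all nuclei (correlations 0.577, 0.183 and 0.524) and non-epithelial nuclei (0.327, 0.170 and 0.328), but in the epithelium CON and SAP replicate 2 had 0.0564. Between libraries of different number the highest correlation over all nuclei was 0.144, for CON replicate 2 with SAP replicate 1. In the epithelium it was 0.166, for CON replicate 3 with SAP replicate 2, and in non-epithelial nuclei -0.026. Replicate 2 was thus little set apart over all nuclei. A fit with the replicate number as a block called 0 members. Class levels, class-fixed mixtures, ranges of mitochondrial share and enterocyte marker sums used unscaled CPM. The named genes were the 9 members, the 2 genes of each pathway list with the highest mean CPM and the 3 genes of most similar class profile per member. Of these, 2 genes are not reported here. The members and lists were chosen with earlier results of these data known. The spatial measurements were not analysed here.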

Additional observations from a re-analysis of the deposited data

How the results depend on the processing

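Over all, epithelial and non-epithelial nuclei the count of members called was 0 in every alternative except DESeq2, which called 1 (Ldha) in epithelial and 1 (Ldha) in non-epithelial nuclei. Over the classes, DESeq2 made 1 call, the fit without a filter on low counts 7 and the fits that leave out 1 library 0 to 2, all of them Ldha, and the 2 came without SAP replicate 3. The fit with the replicate block called 0 members and changed no call. The SAP effect differed between compartments or classes for 0 members in every alternative, leaving out 1 library included (0 to 0). With the class mixture fixed, the groups were apart for 2 members, and for 4 with equal weight for each class. The count was 2 to 5 when 1 library was left out, 5 without CON replicate 3 and 4 without SAP replicate 1. Leaving out a library could not lower this count, since the levels of the other libraries stayed the same. Splitting 2 classes into their clusters gave 2. The share of all genes apart was not computed for equal weights, for the split or with a library left out. These counts therefore have no background to be read against. In the epithelium 5 members were higher in every SAP library with TMM scaling, and the count stayed at 5 when any 1 library was left out. Leaving out a library reused the same scaled levels, so it could raise such a count but not lower it. Without TMM scaling the epithelial count was 3. Within 0.5 to 1% mitochondrial UMIs it was 0, with no share over all genes computed for that range. Over all nuclei the count was 4 with TMM scaling and 3 without it, and over non-epithelial nuclei it was 4 with either. With TMM scaling, leaving out 1 library gave up to 6 in both. No share over all genes was computed for any TMM-scaled count with a library left out, that of the epithelium included. The leading class was that of all libraries for 7 to 9 of the 9 members when 1 library was left out. In the edgeR and DESeq2 fits over all, epithelial and non-epithelial nuclei, signs turned only for Slc2a1, Vegfa, Bnip3 and Pdk1. Slc2a1 over all nuclei was 0.0255 with library totals only, 0.00256 at 1% mitochondrial UMIs and -0.26 to 0.31 leaving out 1 library. Without the 2 libraries that list barcodes under 1000 UMIs, chosen after seeing the data, it was 0.27 over all nuclei and 0.21 in the epithelium. Slc2a1 in the epithelium was -0.45 to 0.22 leaving out 1 library. Vegfa was -0.0809 to 0.255 over all nuclei and -0.17 to 0.26 in the epithelium leaving out 1 library, and -0.0962 in the epithelium without those 2. Bnip3 over all nuclei was 0.0659 with library totals only, 0.0532 with the replicate block, 0.0836 at 1% mitochondrial UMIs and -0.38 to 0.41 leaving out 1 library. Pdk1 in non-epithelial nuclei was 0.00523 with DESeq2, 0.0155 with RLE size factors, 0.0295 with the replicate block, 0.0802 at 1% mitochondrial UMIs and -0.18 to 0.18 leaving out 1 library. The cause was not tested. Epithelial Ldha ranged from 1.12 to 1.94 over its alternatives, with edgeR and DESeq2 adjusted p from 0.0414 to 0.960, and its lowest value came without CON replicate 2 and SAP replicate 1 together. Within 5 ranges of mitochondrial share, chosen after seeing the data, its log2 ratio of means was 0.38 to 1.34. The simulated recovery of 4% at a log2 change of 1 in the epithelium holds for 1 simulated setting, with changes placed only in genes above a set level.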
